A study of Mus musculus with 40 samples.

Results

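Quadriceps muscle taken from mice at the end of a treadmill run to exhaustion, begun at dark onset, was compared with quadriceps of sedentary mice taken at dark onset. The members are 6 of the 40 libraries of the series, chosen by title: 3 from the run mice (Ex +0h ZT12) and 3 from the sedentary mice (Sed ZT12). All were C57BL/6 mice with no genetic change named in the labels, and neither age nor sex is given in the sources used here. Zeitgeber time (ZT) counts hours from lights on, so ZT 12 is the start of the dark phase in which mice are active. The labels place the sedentary mice at ZT12 and the run mice at ZT12.5. Run and sedentary muscle therefore also differed by 0.5 h of clock time, and the sources used here give neither the distance run nor any handling of the sedentary mice on the treadmill. The description of each library carries a tag of its own, read here as a separate mouse. The labels do not say so outright, and the p-values measure only the spread between libraries. That spread was estimated over all quadriceps libraries fitted together, not from the compared libraries alone.

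Contracting muscle raises calcium, cyclic AMP, mechanical load, heat and energy demand within minutes. Cells answer such signals first through immediate early genes, whose transcription needs no new protein and whose short-lived messages code for transcription factors such as FOS, JUN, EGR and NR4A. Heat and misfolded protein release the factor HSF1, which switches on chaperone genes, while circulating glucocorticoid and zinc act on metallothioneins and other stress genes. Muscle also holds endothelial, perivascular and immune cells, and their genes are read in the same tissue RNA.

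Total estimated counts in the 6 libraries ran from 45631207 to 56890848, and 15097 genes passed the filter on low counts in quadriceps. Levels below are counts scaled to the library total (CPM), and fold changes are log2 values of run over sedentary muscle with their standard error (SE). The tissue label was checked against skeletal muscle markers. None of the 8 passed the test in edgeR, though 4 had an unadjusted p under 0.05. Together they summed to 152226 to 168949 CPM in sedentary and 186846 to 195933 CPM in run libraries. In tissue RNA, fewer cells of a type and less RNA per cell cannot be told apart. Adipocyte markers were uneven: the 10 genes summed to 4349, 2313 and 1534 CPM in sedentary replicates 1, 2 and 3 and to 1779, 742 and 1572 CPM in the run libraries. None of those 10 passed in edgeR or in DESeq2, 2 had an unadjusted p under 0.05, and their median log2 fold change was -1.40. Of the slow fibre genes, which mark oxidative fibres, 1 of 11 had a positive fold change and none passed, but Myh7, the slow myosin, read 133 CPM in sedentary replicate 1 against 24.4 and 9.97 CPM in the others, and 14.5 to 82.3 CPM in the run libraries. Hemoglobin and other erythroid markers summed to 188 to 218 CPM in sedentary and 224 to 328 CPM in run libraries, and all 6 measured members had a positive fold change without passing. Neutrophil, macrophage, fibroblast and tendon markers gave no call either, and S100a8, a defining neutrophil gene, was at 0.0554 CPM or less in 5 of the 6 libraries. Of 6 tested lymphocyte markers 1 rose (2.40). Their sums were low, 0.80 to 1.18 CPM in sedentary and 1.71 to 2.57 CPM in run libraries.

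At the end of the run 695 genes passed an adjusted p of 0.05 in edgeR's quasi-likelihood test, 4.6% of those tested. Of these, 482 (3.19%) rose and 213 (1.41%) fell. These shares are the background for the list counts below. At least 4-fold changes were nearly all rises, 67 against 5 falls, and 29 genes rose at least 8-fold. The median log2 fold change was 0.80 among the raised genes, -0.72 among the lowered genes and -0.003 over all genes tested. The raised genes together summed to 23563 to 25559 CPM in the sedentary libraries and 38789 to 41387 CPM in the run libraries. The lowered genes went from 1785 to 1996 CPM down to 1309 to 1386 CPM. Of the called genes, 688 had libraries of the groups that did not overlap, which is true of 20.2% of all genes tested (10.7% with all run libraries above and 9.45% with all of them below). The raised genes had shorter gene models: the median span of their gene models in the RefSeq table was 15690 bases, and 10547 bases for those raised at least 2-fold, against 22536 bases over all genes and 17259 bases for the lowered genes. Long noncoding RNAs made up 11 of the raised genes (2.28%) and 17 of the lowered genes (7.98%), against 4.78% of all genes tested. The count of calls fell to 380 without sedentary replicate 1, to 413 without run replicate 1 and to 456 without run replicate 2. It was 385 in a fit of the 6 libraries alone and 457 when an adipocyte marker score entered the model.

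**Figure D1:**
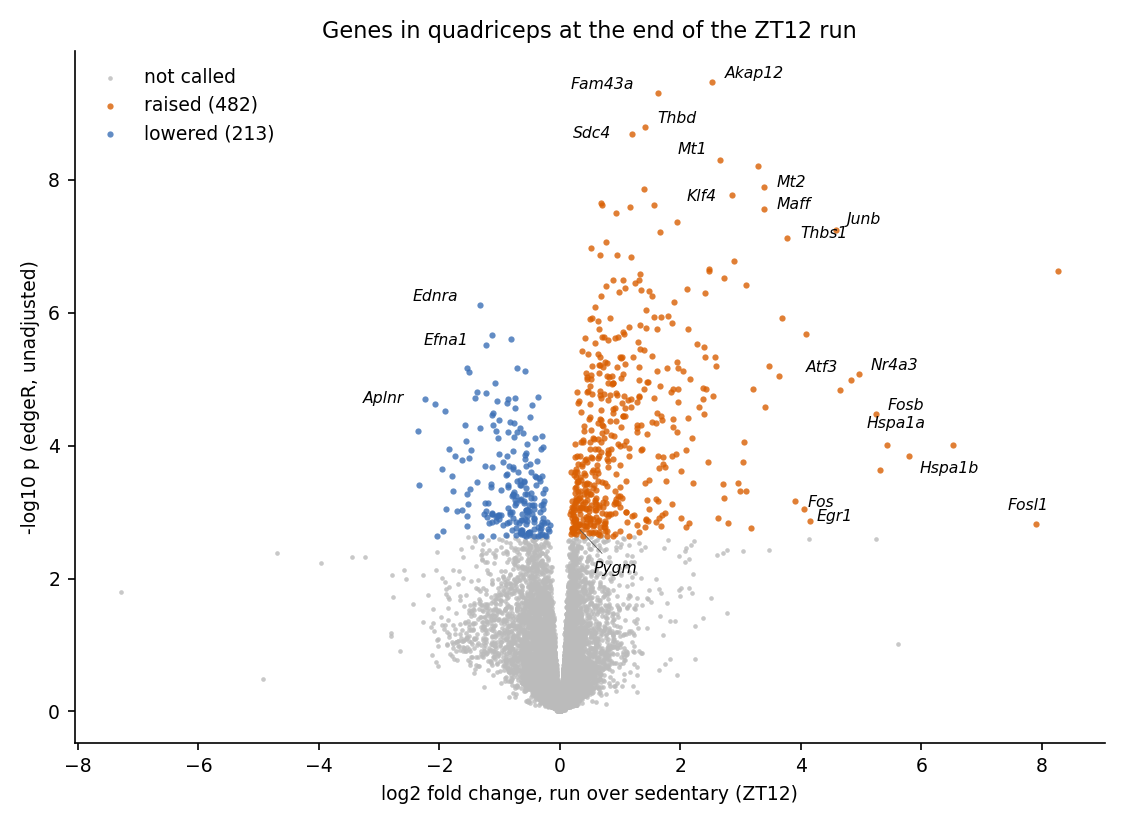
Each point is 1 of 15097 genes; the x axis is the log2 fold change of run over sedentary muscle and the y axis is minus log10 of the unadjusted p from edgeR. Orange points are the 482 raised genes, blue points the 213 lowered genes and grey points the genes that did not pass; Fosl1, Hspa1b, Hspa1a and Fosb lie at the far right.

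The AP-1 factors, which pair as FOS, JUN, ATF and small MAF proteins on DNA, were the list with the highest share of raised members. Of 14 members, 11 rose and none fell, with a median log2 fold change of 2.17. Junb (gene identifier 16477, chr8:84976909-84978748, GRCm38.p6) read 9.57, 7.91 and 8.37 CPM in the sedentary libraries and 204, 218 and 200 CPM in the run libraries. The groups were far apart and each was tight, and the log2 fold change was 4.59 (SE 0.50, adjusted p = 5.05e-05). Maff, a small MAF protein, went from 2.42, 3.21 and 2.98 CPM to 43.4, 30.3 and 16.9 CPM (3.39, SE 0.36, adjusted p = 2.92e-05). Fosl2 went from 21.3, 21.9 and 23.5 CPM to 189, 139 and 114 CPM (2.73, SE 0.34). Atf3, a stress-induced repressor and activator, rose from 3.72, 2.78 and 3.16 CPM to 92.1, 65.5 and 119 CPM (4.84, SE 0.78, adjusted p = 0.00123). Fosb rose by 5.24 (SE 0.93), from 1.25 to 2.01 CPM in sedentary muscle to 46.0 to 66.7 CPM. Jund, which most tissues express at rest, rose by 1.46 (SE 0.24).

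Fos itself (gene identifier 14281, chr12:85473890-85477274) read 25.1, 18.1 and 28.8 CPM in the sedentary and 297, 241 and 544 CPM in the run libraries. Run replicate 3 stood above the other run libraries, and the groups did not overlap (3.91, SE 0.94, adjusted p = 0.0228). The call was lost without run replicate 3 (3.48, adjusted p = 0.059) and without any 1 of the sedentary libraries (3.74 to 4.06, adjusted p from 0.0599 to 0.102). Fosl1, named after its values were seen, was at 0 counts in all 3 sedentary libraries and at 0.794, 0.408 and 0.402 CPM in the run libraries. Against the floor of 3 counts over the sedentary group, or 0.0195 CPM, it was at least 27.4-fold higher. Its call was lost without any 1 of the 6 libraries (adjusted p from 0.0522 to 0.125).

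Of the 24 tested EGR, IER, NR4A and related immediate early genes, 14 rose and none fell (median 1.66). The NR4A orphan nuclear receptors, which bind DNA without a known ligand, all rose. Nr4a3 (chr4:48045078-48086447) read 2.98, 1.24 and 1.41 CPM in sedentary and 82.3, 58.8 and 32.9 CPM in run muscle (4.96, SE 0.78, adjusted p = 0.0011). Nr4a2 went from 3.35, 1.36 and 2.01 CPM to 70.3, 65.4 and 31.6 CPM (4.64, SE 0.77). Nr4a1, one of the called genes with the highest counts, was already at 264, 364 and 354 CPM in sedentary muscle and reached 1059, 892 and 893 CPM (1.53, SE 0.28, adjusted p = 0.00307). Its groups did not overlap, as for Nr4a3, but the ratio between them was smaller. Egr1, a zinc finger factor, read 37.7, 9.62 and 13.5 CPM in sedentary and 168, 159 and 678 CPM in run muscle (4.05, SE 1.00, adjusted p = 0.0273). The run library at 678 CPM was again replicate 3. Without that library the log2 fold change was 3.01 and the call was lost (adjusted p = 0.102), as it was without sedentary replicate 2 (3.71, adjusted p = 0.114) or 3 (3.82, adjusted p = 0.0892). Btg2, an antiproliferative gene, rose from 47.3, 30.5 and 39.4 CPM to 538, 457 and 470 CPM (3.64, SE 0.58). Sik1, a salt-inducible kinase, rose by 2.58 (SE 0.39) and Arc by 2.60 (SE 0.41), while Rhob, a small GTPase, rose by 1.21 (SE 0.19) and Ier5l by 1.79 (SE 0.30).

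**Figure D2:**
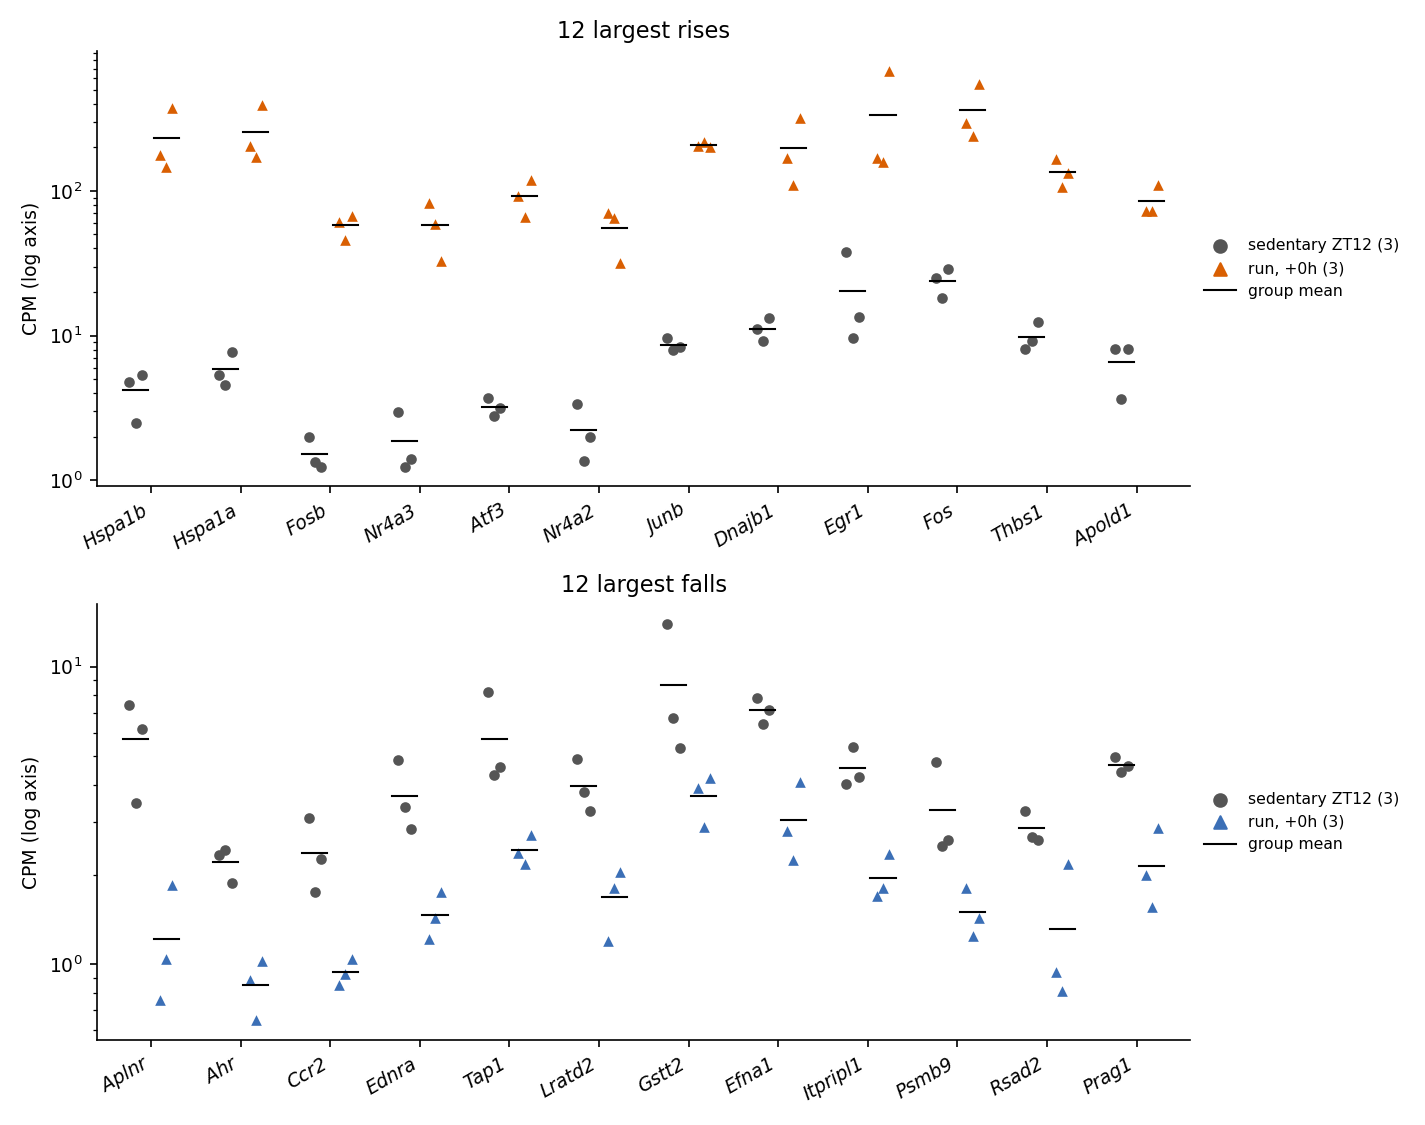
CPM on a log axis in each of the 6 libraries for the 12 largest rises (upper panel) and the 12 largest falls (lower panel) among called genes with separate groups and a mean log2 CPM no lower than 1; circles are sedentary and triangles run libraries, with the bar at the group mean. The rises span 12.9 to 55.4-fold and the falls 2.19 to 4.71-fold, and the gap between the groups is wider for Junb than for Rsad2.

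Part of a list of feedback inhibitors rose as well. Of 33 signal feedback inhibitors and mRNA decay factors, 12 rose (36.4%, against 3.19% of all genes) and none fell (median 0.46). Dusp1, a phosphatase that turns off MAP kinases, went from 71.9, 82.2 and 88.5 CPM to 346, 327 and 387 CPM (2.13, SE 0.30, adjusted p = 0.000425). Spry4, an inhibitor of growth factor signals, went from 7.21, 4.90 and 7.16 CPM to 18.6, 22.3 and 20.2 CPM (1.67, SE 0.20, adjusted p = 5.12e-05). Errfi1, which restrains the EGF receptor, rose by 2.40 (SE 0.43). Zfp36, which degrades AU-rich messages, rose by 1.97 (SE 0.33). The phosphodiesterase Pde4b, which breaks down cyclic AMP, rose by 1.06 (SE 0.14) and the phosphatase Dusp8 by 1.01 (SE 0.17). Of 13 KLF factors, 5 rose (38.5%, median 0.37). Klf4 led them, at 16.8, 17.9 and 22.2 CPM in sedentary and 146, 145 and 121 CPM in run muscle (2.86, SE 0.29, adjusted p = 2.82e-05). Klf2, which endothelial cells switch on under flow, rose by 1.88 (SE 0.31), Klf16 by 1.05 (SE 0.18) and Klf3 by 0.69 (SE 0.13).

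Several raised genes carry the cyclic AMP response element, the full palindrome TGACGTCA, within 250 bases before their start site in the RefSeq promoter table of GRCm38.p6. The windows below are shown because their genes stand in the AP-1, immediate early, feedback inhibitor, matricellular or integrated stress response lists. They were chosen after the matches were seen. The capitals mark the element, and each is on the strand of its gene:
Maff, chr15:79347466-79347519, plus strand: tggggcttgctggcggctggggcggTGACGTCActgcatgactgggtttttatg
Btg2, chr1:134079289-134079346, minus strand: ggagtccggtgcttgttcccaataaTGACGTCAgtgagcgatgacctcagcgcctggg
Dusp1, chr17:26508583-26508640, minus strand: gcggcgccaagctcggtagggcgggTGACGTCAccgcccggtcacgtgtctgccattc
Errfi1, chr4:150854994-150855051, plus strand: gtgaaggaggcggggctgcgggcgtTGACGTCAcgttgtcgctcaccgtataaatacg
Has1, chr17:17855239-17855296, minus strand: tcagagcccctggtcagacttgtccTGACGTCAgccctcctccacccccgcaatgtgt
Ppp1r15a, chr7:45526269-45526305, minus strand: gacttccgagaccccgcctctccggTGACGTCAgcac
Dusp8 had the element at both of 2 places in its window. The element lay 21 bases before the start site in Maff, 43 in Errfi1, 75 in Has1, 135 in Dusp1 and 158 in Btg2. It occurs in 508 of all 32851 windows of the table (1.55%), and in 331 of the 11856 windows of genes tested (2.79%). Among genes raised at least 2-fold, 15 of the 136 with a window had it, and among lowered genes 1 of 170. Only 71.2% of the genes raised at least 2-fold and 78.5% of all genes tested had a window, so a comparison of these shares is void and none was made. A match is a string of letters, not a measured binding site.

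Chaperones and their partners, most but not all of them cytosolic, were the next group. Of 25 genes of the HSP70 system and its J-protein and HSP110 partners, 9 rose and none fell (median 0.35). Of 22 genes of HSP90, HSP60, the TRiC ring and HSF1, 9 rose and none fell (median 0.20). With sedentary ZT 16 muscle as the control none of these 25 and 22 genes was called, and their medians were 0.018 and 0.009. Of 7 small heat shock proteins only Hspb1 passed (1.48, SE 0.37), from 77.1, 63.5 and 75.5 CPM to 190, 178 and 234 CPM. The inducible HSP70 genes Hspa1a and Hspa1b are near-identical copies, and the pair is more certain than either gene. Summed, they read 10.2, 7.04 and 13.1 CPM in the sedentary and 379, 318 and 767 CPM in the run libraries, with run replicate 3 the highest. Singly, Hspa1a rose by 5.44 (SE 1.06, adjusted p = 0.00547) and Hspa1b by 5.79 (SE 1.18, adjusted p = 0.00732). Dnajb1, the J-protein that feeds clients to HSP70, went from 11.1, 9.18 and 13.3 CPM to 168, 110 and 320 CPM (4.16, SE 1.08, adjusted p = 0.0353). Its groups did not overlap, and run replicate 3 was again the highest. The call of Dnajb1 held without run replicate 2 and was lost without any 1 of the other 5 libraries (3.64 to 4.30, adjusted p from 0.0666 to 0.143). That of Hspb1 was lost without any 1 of the 6 libraries (1.35 to 1.56, adjusted p from 0.0516 to 0.105).

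Among the other chaperones, Hspa8, the constitutive HSP70, went from 925, 790 and 948 CPM to 1515, 1501 and 1417 CPM (0.73, SE 0.11, adjusted p = 0.000503). Dnaja1 rose from 37.2, 26.5 and 31.2 CPM to 126, 108 and 116 CPM (1.88, SE 0.34). Stip1, which bridges HSP70 and HSP90, rose by 0.54 (SE 0.10) and Dnajb2 by 0.35 (SE 0.07). Hsp90ab1, the constitutive HSP90, read 1086, 1072 and 1109 CPM in sedentary and 1558, 1401 and 1342 CPM in run muscle (0.40, SE 0.08, adjusted p = 0.00384). Its cochaperones Ahsa2 and Ptges3 rose by 0.67 (SE 0.13) and 0.44 (SE 0.08), and Ahsa1 by 0.31 (SE 0.06). The TRiC subunit Cct3 rose by 0.29 (SE 0.05).

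The start-site windows of Hspa1b and Hspa1a show how alike the copies are before their start sites, where a heat shock element of 2 units, GAANNTTC, is in capitals:
Hspa1b, chr17:34959239-34959488, minus strand: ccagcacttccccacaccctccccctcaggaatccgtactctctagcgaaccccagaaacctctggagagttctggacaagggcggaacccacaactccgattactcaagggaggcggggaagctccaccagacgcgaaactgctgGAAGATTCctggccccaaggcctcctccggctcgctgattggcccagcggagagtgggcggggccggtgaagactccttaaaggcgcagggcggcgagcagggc
Hspa1a, chr17:34972157-34972406, minus strand: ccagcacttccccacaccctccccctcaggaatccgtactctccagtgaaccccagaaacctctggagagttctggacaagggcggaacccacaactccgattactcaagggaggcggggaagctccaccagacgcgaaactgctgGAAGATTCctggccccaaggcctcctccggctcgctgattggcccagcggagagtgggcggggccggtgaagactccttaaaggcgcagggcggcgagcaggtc
The 250-base windows differ at 3 positions and are 98.8% identical, with the element 96 bases before each start site. Both strands were searched for GAANNTTC and TTCNNGAA, a search chosen after the longer form of 3 units was found in neither window. The 2-unit form is common, in 12.8% of all windows of the table, and was in 11 of the 30 chaperone genes with a window that did not pass and in 6 of the 15 that rose. Of the raised chaperone genes 78.9% had a window, so a comparison of these shares is void as well.

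Folding genes of the endoplasmic reticulum were not called at this time. Of 21 genes of that compartment and the unfolded protein response none passed in edgeR or in DESeq2, 2 had an unadjusted p under 0.05, and the median was 0.12. Hspa5, its main HSP70, read 135, 139 and 134 CPM in sedentary and 169, 158 and 176 CPM in run muscle (0.30, SE 0.11, adjusted p = 0.129). The groups did not overlap, and the difference did not pass. In the integrated stress response 2 of 16 tested genes rose, Ppp1r15a, which restores translation (1.04, SE 0.15), and Atf4, its central transcription factor (0.32, SE 0.06). Ddit4, a brake on mTORC1, read 23.6, 74.1 and 68.1 CPM in sedentary and 300.5, 251 and 178 CPM in run muscle without passing (2.14, SE 0.78, adjusted p = 0.155).

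Metallothioneins, small zinc-binding proteins that glucocorticoid and zinc induce, had some of the smallest p-values. Mt1 (gene identifier 17748, chr8:94178883-94180327) went from 13.2, 14.5 and 9.27 CPM to 85.8, 77.4 and 69.3 CPM (2.65, SE 0.25, adjusted p = 1.50e-05). Mt2 went from 4.03, 5.42 and 3.83 CPM to 53.5, 46.3 and 39.1 CPM (3.38, SE 0.34, adjusted p = 2.59e-05). All run libraries were far above all sedentary ones for both. The other 12 members of the metallothionein and zinc transporter list did not pass. Of 23 glucocorticoid responsive genes tested, 7 rose and none fell (median 0.66): Mt1, Mt2, Dusp1, Errfi1, the cell cycle inhibitor Cdkn1a (1.69, SE 0.31) and 2 more. Several of the 7 also answer to other signals and stand in other lists here.

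**Figure D3:**
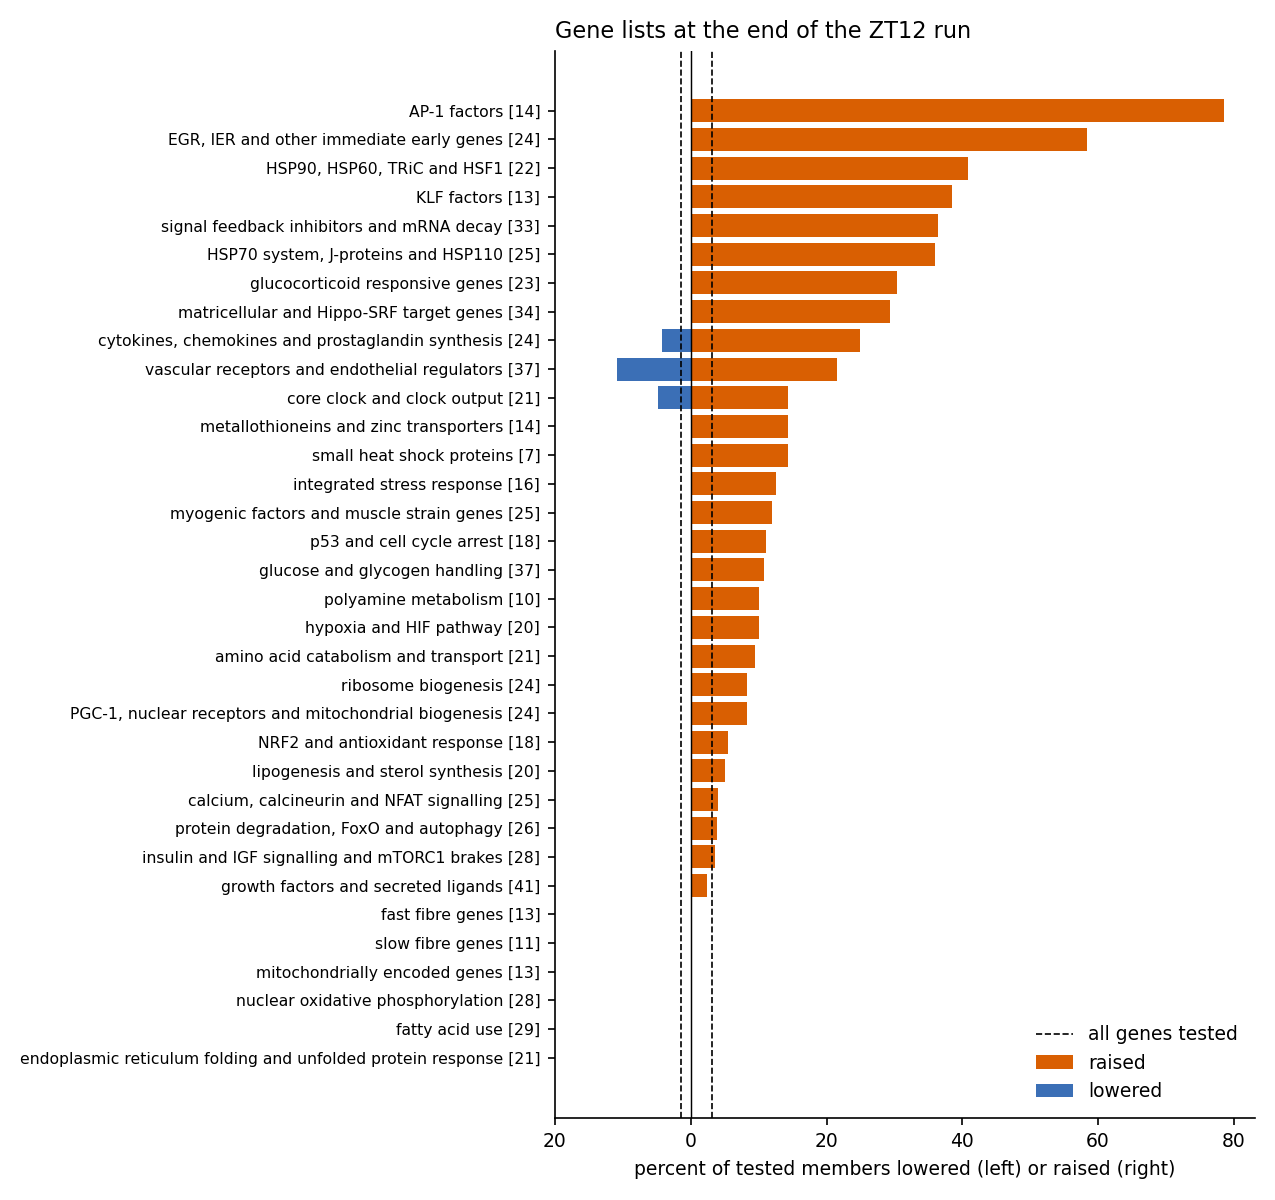
Percent of the tested members of each gene list that rose (orange, to the right) or fell (blue, to the left) at the end of the run, with the number tested in brackets; dashed lines mark the 3.19% raised and 1.41% lowered over all genes. AP-1 factors reach 78.6% raised, and lists of oxidative phosphorylation, fatty acid use and endoplasmic reticulum folding have no bar.

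Genes of blood vessels moved in both directions. Of 37 vascular receptors and endothelial regulators, 8 rose and 4 fell (median 0.01), against 3.19% and 1.41% of all genes. The endothelial markers themselves summed to 254 to 341 CPM in sedentary and 272 to 306 CPM in run libraries, and none of the 9 passed in edgeR (3 at an unadjusted p under 0.05), while DESeq2 called 1 of them as lowered. With sedentary ZT 16 muscle as the control 5 of the 9 markers fell, and of the 37 genes 7 rose and 12 fell. Aplnr, the apelin receptor (gene identifier 23796, chr2:85136360-85139923), had the largest named fall, from 7.42, 3.48 and 6.18 CPM to 0.757, 1.04 and 1.85 CPM (-2.24, SE 0.39, adjusted p = 0.00177). In a fit of the 6 libraries alone its adjusted p was 0.0574. Of the 114 named genes tested in that fit, 22 lost their call and 1 gained one. Ednra, the endothelin receptor of vascular smooth muscle, fell from 4.84, 3.36 and 2.85 CPM to 1.22, 1.43 and 1.75 CPM (-1.33, SE 0.19). Efna1, an ephrin ligand, fell from 7.86, 6.42 and 7.16 CPM to 2.81, 2.24 and 4.10 CPM (-1.23, SE 0.19). Pdgfrb, the PDGF receptor of pericytes, fell by 0.56 on the log2 scale (SE 0.12) and was the 1 lowered of 9 smooth muscle and pericyte markers; without run replicate 1 its adjusted p was 0.0521. Thbd, thrombomodulin, an anticoagulant of the endothelial surface, rose from 14.7 to 16.6 CPM in sedentary to 38.6 to 43.0 CPM in run muscle (1.41, SE 0.13, adjusted p = 7.66e-06). Apold1, an early endothelial gene, rose from 8.10, 3.64 and 8.07 CPM to 73.2, 72.4 and 110 CPM (3.69, SE 0.50). The endothelial factor Sox17 rose by 0.98 (SE 0.13) and Rasip1, a regulator of vessel lumens, by 0.80 (SE 0.12). Vegfa, the main angiogenic factor, did not pass (148 to 185 against 194 to 208 CPM, 0.23, SE 0.11, adjusted p = 0.288). In the hypoxia list only the collagen prolyl hydroxylases P4ha1 (0.68, SE 0.12) and P4ha2 (0.58, SE 0.08) passed, of 20 (10%).

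Extracellular matrix and cytoskeletal genes rose in part. Of 34 matricellular, Hippo and SRF target genes, 10 rose and none fell (median 0.48). Thbs1, thrombospondin 1, a matrix protein released on injury and stretch, went from 8.12, 9.12 and 12.3 CPM to 166, 106 and 134 CPM (3.78, SE 0.42, adjusted p = 5.88e-05). The proteases Adamts1 and Adamts4 rose by 1.79 (SE 0.25) and 2.28 (SE 0.36). The cytoskeletal actins Actg1 and Actb rose by 1.16 (SE 0.13) and 0.64 (SE 0.10). Sdc4, a membrane proteoglycan that also served as a satellite cell marker, went from 15.3, 17.1 and 18.2 CPM to 43.7, 37.4 and 34.5 CPM (1.19, SE 0.12, adjusted p = 7.66e-06), while the other 6 satellite cell markers did not pass. Fibroblast and matrix markers, collagens among them, summed to 1826 CPM in run replicate 2 against 1064 and 1286 CPM in the other run libraries and 1107 to 1404 CPM in sedentary muscle, and tendon markers summed to 610 CPM there against 195 and 206 CPM in the other run libraries.

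Of 24 tested genes for cytokines, chemokines and prostaglandin synthesis, 6 rose (25%) and 1 fell (4.17%), against 3.19% and 1.41% of all genes (median 0.30). DESeq2 raised 7. With the adipocyte score 2 rose, in a fit of the 6 libraries alone 3 of 19 tested, and without run replicate 3 again 3, of 25. Run replicate 3 was the highest run library for 5 of the 6 raised genes. Ptgs2, cyclooxygenase 2, rose from 0.186, 0.350 and 0.279 CPM to 3.18, 3.80 and 7.05 CPM (4.09, SE 0.61, adjusted p = 0.00048). Rel, an NF-kappa B subunit, rose by 1.13 (SE 0.20). Irf1, an interferon-induced factor, fell by 1.01 on the log2 scale (SE 0.21). Other genes of antigen processing and interferon response stood among the 12 largest falls: Tap1, the peptide transporter (8.25, 4.34 and 4.60 to 2.36, 2.17 and 2.71 CPM), Psmb9, an immunoproteasome subunit (4.80, 2.49 and 2.62 to 1.81, 1.24 and 1.43 CPM), and the antiviral gene Rsad2 (3.27, 2.68 and 2.62 to 0.942, 0.815 and 2.17 CPM). The first library in each of these triples, sedentary replicate 1, was the highest. Their log2 fold changes were -1.24 (SE 0.27), -1.14 (SE 0.27) and -1.13 (SE 0.30). Ccr2, a monocyte chemokine receptor, fell from 3.10, 1.75 and 2.25 CPM to 0.849, 0.927 and 1.04 CPM (-1.33, SE 0.26), while the 10 macrophage markers summed to 148 to 184 CPM in sedentary and 161 to 179 CPM in run libraries. Ahr, the aryl hydrocarbon receptor, fell by 1.37 on the log2 scale (SE 0.24), and Itpripl1, Prag1, Lratd2 and Gstt2 by 1.23, 1.13, 1.24 and 1.23. Sedentary replicate 1 was the highest sedentary library for 10 of the 12 largest falls and for 132 of the 213 lowered genes, and its adipocyte marker sum was also the highest. When the adipocyte score entered the model 108 genes fell, 99 of them among the 213, and without sedentary replicate 1 the count was 77. Calls in this paragraph that depended on that library were Irf1 (-0.67 without it, adjusted p = 0.0578), Tap1 (-0.89, adjusted p = 0.0869), Psmb9 (-0.78, adjusted p = 0.152), Rsad2 (-1.03, adjusted p = 0.129), Lratd2 (-1.07, adjusted p = 0.123) and Gstt2 (-0.71, adjusted p = 0.25). Tap1 also lost its call without run replicate 2 (-1.17, adjusted p = 0.0529) and Psmb9 without run replicate 2 or 3 (-1.02 and -1.11). Rsad2 and Lratd2 also lost theirs without run replicate 1 (-0.94 and -1.05), run replicate 2 (-0.88 and -1.30) or sedentary replicate 2 (-1.18 and -1.28), and Gstt2 without run replicate 1 or 2 (-1.28 and -1.08). Ahr, Ccr2, Itpripl1 and Prag1 kept their calls without any 1 library.

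Il6, the best-known myokine, was below the filter and was not tested. Of 41 tested growth factors and secreted ligands 1 rose, Bmp2 (1.02, SE 0.19). That is 2.44%, close to the 3.19% raised over all genes tested. Among muscle regulators, 3 of 25 rose (12%): Myog, a myogenic factor, from 2.73, 3.58 and 3.67 CPM to 16.7, 10.7 and 9.05 CPM (1.87, SE 0.27), Xirp1, an actin-binding protein of strained fibres (2.01, SE 0.52), and Myf6 (0.55, SE 0.14). Xirp1 lost its call without any 1 of the 6 libraries (1.78 to 2.17, adjusted p from 0.0502 to 0.132) and Myf6 without any 1 but run replicate 3 (0.49 to 0.58, adjusted p from 0.0575 to 0.134). Akap12, a scaffold for protein kinase A, and Fam43a shared the smallest adjusted p of the comparison. Akap12 (chr10:4266329-4359471) went from 13.5, 12.7 and 14.3 CPM to 99.3, 83.6 and 51.4 CPM (2.53, SE 0.21, adjusted p = 3.75e-06), and Fam43a from 6.47, 5.44 and 6.36 CPM to 17.8, 17.5 and 21.5 CPM (1.63, SE 0.15). Gprc5a, an orphan receptor, rose by 3.28 (SE 0.34), Pxdc1 by 1.40 (SE 0.15) and Camk2n1, an inhibitor of CaM kinase II, by 0.69 (SE 0.08). Among 25 calcium, calcineurin and NFAT genes 1 rose (4%), Nfatc1 (0.42, SE 0.06), again close to the share over all genes.

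For the metabolic lists the shares over all genes tested were 3.19% raised and 1.41% lowered. Of 37 genes of glucose and glycogen handling, 4 rose (10.8%) and none fell (median 0.15). DESeq2 raised 5 of them. Only 1 rose in a fit of the 6 libraries alone, without run replicate 2, without sedentary replicate 1 or with the adipocyte score. Fewer genes in all were called in those fits. Ppp1r3c, which targets protein phosphatase 1 to glycogen, went from 272, 460 and 361 CPM to 1016, 834 and 628 CPM (1.18, SE 0.21, adjusted p = 0.00213). Pygm, the muscle glycogen phosphorylase, had the highest counts of all called genes and a small shift, from 7612, 8640 and 8454 CPM to 9992, 10098 and 10089 CPM (0.29, SE 0.08, adjusted p = 0.0401). The run libraries lay within a narrow band above all sedentary ones. All 13 fast fibre genes also had a positive fold change (median 0.23), and none passed in edgeR. They summed to 189717 to 208739 CPM in sedentary and 232918 to 238095 CPM in run libraries. Whether the rise of Pygm is separate from theirs was not tested. The call of Pygm was lost without any 1 of the 6 libraries (0.24 to 0.32, adjusted p from 0.0582 to 0.214). Gpi1, of the same pathway, rose by 0.28 (SE 0.07), and lost its call without run replicate 2 (0.27, adjusted p = 0.0554) or sedentary replicate 1 (0.24, adjusted p = 0.1). Counts also depend on message length, so these CPM levels do not rank genes by molecules. Of 28 insulin and mTORC1 genes 1 passed (3.57%), close to the share over all genes. It was Irs2, an adaptor of the insulin receptor, which went from 21.2, 17.4 and 18.7 CPM to 121, 74.3 and 59.8 CPM (2.16, SE 0.35). Pdk4, which limits glucose oxidation, read 489, 618 and 619 CPM in sedentary and 845, 540 and 438 CPM in run muscle, with overlapping groups (0.08, SE 0.28, adjusted p = 0.931). In the PGC-1 and mitochondrial biogenesis list 2 of 24 rose, Crem, a cyclic AMP responsive factor (1.02, SE 0.17), and Pprc1 (0.44, SE 0.11), whose call was lost without run replicate 1 or 2 or sedentary replicate 1 (0.36 to 0.46, adjusted p from 0.0597 to 0.162). Ppargc1a, which codes for PGC-1 alpha, read 22.8, 21.5 and 24.5 CPM in sedentary and 27.4, 27.8 and 27.0 CPM in run muscle without passing (0.26, SE 0.11, adjusted p = 0.243). None of 29 genes of fatty acid use and none of 28 nuclear genes of oxidative phosphorylation passed in edgeR or in DESeq2, with 5 and 0 of them at an unadjusted p under 0.05. At the shares over all genes, lists of this size would hold few calls. The 13 mitochondrially encoded genes gave no call either (1 at an unadjusted p under 0.05, 0 in DESeq2). Tuba4a, an alpha tubulin, rose by 0.33 (SE 0.08), a call lost without any 1 of the 6 libraries (adjusted p from 0.0506 to 0.119). Nfe2l2, the antioxidant factor NRF2, rose by 0.80 (SE 0.14), and Sat1, which degrades polyamines, by 0.94 (SE 0.12).

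Of 21 clock genes, 3 rose (14.3%) and 1 fell (4.76%), against 3.19% and 1.41% of all genes (median 0.08). In DESeq2 3 rose and 2 fell. Without run replicate 1, and likewise without sedentary replicate 1, only 1 rose and none fell. Nfil3, a repressor of clock output, went from 23.6 ± 4.18 CPM (SD, n = 3) to 63.7 ± 15.7 CPM with separate groups (1.43, SE 0.21, adjusted p = 0.000425). Ciart, a repressor that acts on the core loop, went from 9.10, 12.6 and 12.8 CPM to 49.5, 33.6 and 23.8 CPM (1.63, SE 0.39, adjusted p = 0.0228), and the kinase gene Csnk1d rose by 0.27 (SE 0.06). Nr1d1, which codes for REV-ERB alpha, fell from 57.3, 46.8 and 54.7 CPM to 21.5, 40.4 and 29.8 CPM (-0.79, SE 0.20, adjusted p = 0.0293). Per1 read 101, 130 and 125 CPM in sedentary and 292, 219 and 176 CPM in run muscle without overlap, but did not pass (0.95, SE 0.36, adjusted p = 0.18). Per2 (0.54, SE 0.41), Cry1 (0.17, SE 0.08), Arntl (0.37, SE 0.18) and Dbp (-0.45, SE 0.14) did not pass. Clock genes move with time of day, and the 0.5 h between the groups cannot be told apart from the run. Ciart lost its call without run replicate 1 or 2 or sedentary replicate 1 or 2 (1.32 to 1.70, adjusted p from 0.0504 to 0.118), and Csnk1d without run or sedentary replicate 1 (0.23 and 0.25). Nr1d1 lost it without run replicate 1 or 3 or sedentary replicate 1 or 3 (-0.59 to -0.77, adjusted p from 0.0682 to 0.139), and Dbp passed in DESeq2 (adjusted p = 0.0407).

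The 3 run libraries differed among themselves. Run replicate 1 was the highest of the 3 for 261 of the 482 raised genes, replicate 2 for 94 and replicate 3 for 127. Replicate 3 was the lowest for 233. Yet replicate 3 was the highest for 8 of the 12 largest rises, Fos, Fosb, Egr1, Atf3, Apold1, Hspa1a, Hspa1b and Dnajb1, while Nr4a2, Nr4a3, Maff, Akap12 and Irs2 were lowest there. Named after their values were seen, Egr3 (10.6, 10.8 and 29.0 CPM in run replicates 1, 2 and 3) and Ier2 (16.3, 23.2 and 69.5 CPM) were highest in replicate 3 like Egr1. Of the 14 raised genes in the EGR, IER and NR4A list, 7 were highest in run replicate 1, none in replicate 2 and 7 in replicate 3. All 3 raised clock genes and both metallothioneins were highest in replicate 1 and lowest in replicate 3.

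**Figure D4:**
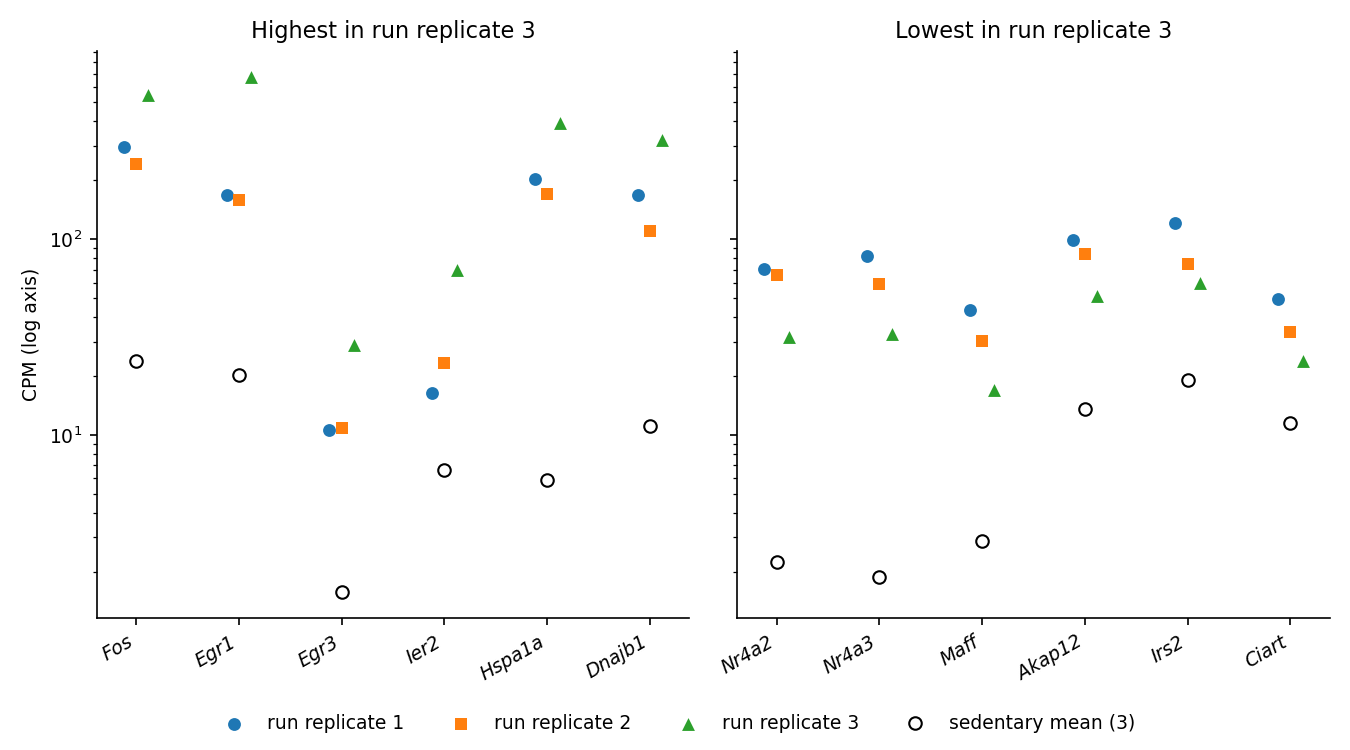
CPM on a log axis in the 3 run libraries (circle, square and triangle for replicates 1, 2 and 3) for genes highest in run replicate 3 (left panel) and genes lowest there (right panel), with the mean of the 3 sedentary libraries as an open circle. Egr1 reaches 678 CPM in replicate 3 while Nr4a3 is at 32.9 CPM, and all run values lie above the sedentary means.

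Levels over the study's other quadriceps groups place the ZT 12 values. Junb was at 4.71 to 5.45 CPM in sedentary ZT 0, 14.9 to 42.9 in sedentary ZT 4 and 4.75 to 18.8 CPM in sedentary ZT 16 muscle, so that every run library of ZT 12 lay above every sedentary library. At +3h of the ZT 12 session, in mice left for 3 h after the run, Junb was back at 8.25 to 11.7 CPM. Fos was likewise at 11.2 to 21.3 CPM at +3h. Nr4a3, by contrast, was at 134 to 221 CPM at +3h, above all libraries of +0h, and Mt1 at 88.5 to 180 CPM. Aplnr read 4.49 to 9.51 CPM at +3h, overlapping the sedentary ZT 12 range of 3.48 to 7.42 CPM. The HSP70 pair was lowest in sedentary ZT 12 muscle: its sum was 44.3 to 205 CPM in sedentary ZT 0, 19.2 to 297 CPM in sedentary ZT 4 and 108 to 741 CPM in sedentary ZT 16 mice. The run libraries of ZT 12, at 318 to 767 CPM, overlapped the sedentary ZT 16 range, so the ratio of this pair depends on the sedentary group it is set against, as do the calls of both large chaperone lists. With sedentary ZT 16 muscle as the control 642 genes rose and 538 fell, 201 and 75 of them among the 482 and 213; that comparison also spans 3.5 h of clock time. Several called genes then had a fold change of the other sign, among them Hspa8 (-0.0296), Hspb1 (-0.022), Ahsa1 (-0.013), Pde4b (-0.0697), Atf4 (-0.026), P4ha1 (-0.078), Nfatc1 (-0.072) and Nr1d1 (0.46), all close to 0 but the last. Fos (2.66, adjusted p = 0.0777) and Dnajb1 (1.33, adjusted p = 0.448) stayed positive without passing.

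**Figure D5:**
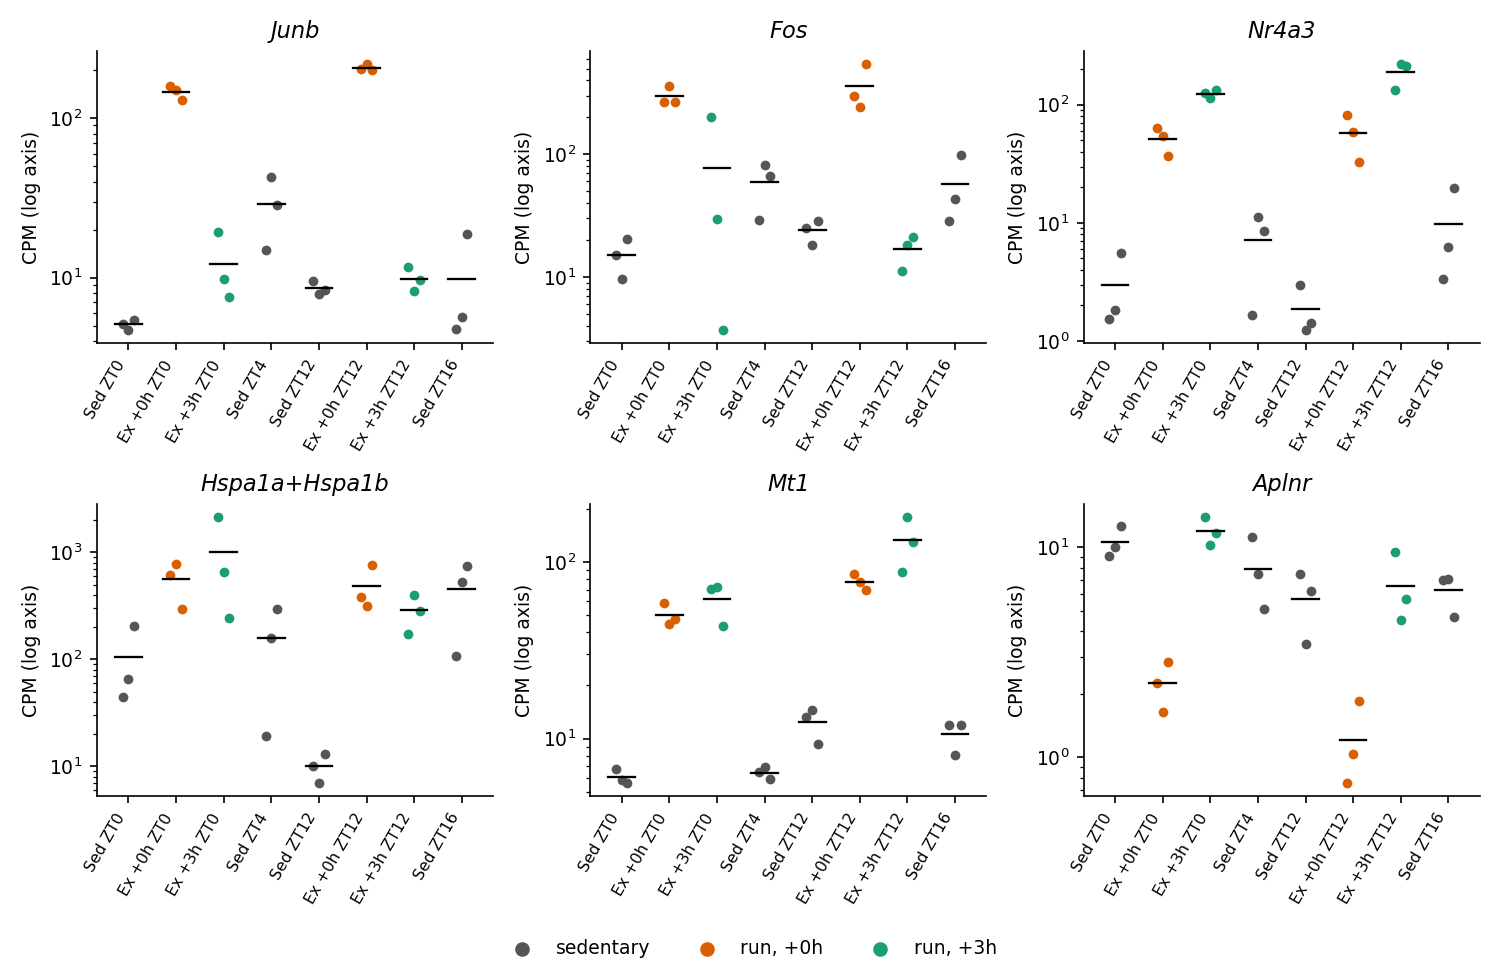
CPM on a log axis in each library of the 8 quadriceps groups for Junb, Fos, Nr4a3, the sum of Hspa1a and Hspa1b, Mt1 and Aplnr; grey points are sedentary, orange +0h and green +3h libraries, and black bars mark group means. Junb and Fos peak at +0h of both sessions, Nr4a3 and Mt1 stay high at +3h, and the HSP70 pair is lowest in sedentary ZT 12 muscle.

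A session of the same kind at ZT 0, the start of the light phase, allows a test of whether the response differed between the times of day. It used other mice and shares no library with the ZT 12 comparison. In edgeR 0 of 15097 genes (0%) passed for the difference between the responses, with a lowest adjusted p of 0.258. At an unadjusted p under 0.05 there were 1911 genes, 12.7% of those tested, and in DESeq2 18 passed. Without run replicate 2 of the ZT 0 session 322 genes passed, and without its run replicate 3 there was 1. Some genes rose by close amounts. Junb rose by 4.59 at ZT 12 and by 4.85 at ZT 0 (difference -0.26, SE 0.63). Nr4a2 rose by 4.64 and 4.56 (difference 0.09, SE 0.99), and Mt1 by 2.65 and 3.06 (difference -0.41, SE 0.34). Aplnr fell by 2.24 and 2.25 on the log2 scale (difference 0.02, SE 0.57). These responses are not shown to be equal, since differences of several SEs did not pass either. Klf4 rose by 2.86 at ZT 12 and 1.61 at ZT 0 (difference 1.25, SE 0.39, adjusted p = 0.258). Differences with an unadjusted p under 0.05 in edgeR numbered 2 of 14 AP-1 factors, 4 of 24 immediate early genes and 5 of 13 KLF factors. Of the 12 largest rises 9 passed at ZT 0 as well, and of the 12 largest falls 6 did. Tap1 (0.07) and Psmb9 (0.15) had log2 fold changes near 0 at ZT 0, with differences of -1.31 (SE 0.38) and -1.29 (SE 0.38) that did not pass.

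For gene groups the sessions stood further apart in places, again without a call on the difference. At ZT 0 647 genes rose (4.29% of those tested) and 382 fell (2.53%). Of the 21 endoplasmic reticulum genes 15 rose at ZT 0 and 0 at ZT 12; 12 of their differences had an unadjusted p under 0.05, and Hspa5 differed by -0.43 (SE 0.15) and Hyou1, a partner of it, by -0.45 (SE 0.11, adjusted p = 0.258). Of the mitochondrially encoded genes 11 of 13 fell at ZT 0 and none at ZT 12, and 9 of their differences had an unadjusted p under 0.05. Of the 34 pathway lists the one with the largest share of such differences was nuclear oxidative phosphorylation, with 22 of 28 (median difference 0.29), where 1 gene fell at ZT 0 and none at ZT 12. Adipocyte markers moved with the sessions, with a median log2 fold change of 1.85 at ZT 0 and -1.40 at ZT 12 and no call in either; 9 of the 10 differences had an unadjusted p under 0.05, and their part in the group differences was not tested. Among the genes with the smallest p of the difference were Efnb3, an ephrin ligand, Sox13, Ttll13, Cldn15 and Per1, with differences of 1.91 (SE 0.36), 0.74 (SE 0.15), -2.87 (SE 0.61), -1.71 (SE 0.36) and -2.48 (SE 0.52). Per1 rose by 3.43 at ZT 0, where the median sedentary library held 11.8 CPM, against 101 to 130 CPM in sedentary ZT 12 muscle. Cldn15 was called at ZT 0, where it rose by 1.32, and not at ZT 12.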

How the data were processed

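RNA of quadriceps was sequenced from poly(A) libraries made with a stranded kit, per the labels' protocols. The authors deposited estimated counts per gene from kallisto 0.46.2, with 2 lane columns for each library; the submitters' processing notes also name bcl2fastq 2.20.0.422, DESeq2 1.26.0 and the builds GRCm38.p6 and mm10. The sources used here do not give the strand setting of the quantification, so overlapping and antisense genes cannot be told apart. Lanes were summed and rounded to whole numbers. Of 23621 gene identifiers 23614 matched RefSeq symbols of GRCm38.p6, and the other 7 held 0.00139% of counts. Replicates of a group differed by more than counting noise, so none was treated as a library deposited more than once.

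All 24 quadriceps libraries, 3 in each of 8 groups, were fitted in edgeR 4.0.16 (R 4.3.3, TMM factors, robust quasi-likelihood F-test, filterByExpr with a minimum count of 10), so that the groups share an estimate of the spread. P-values were adjusted over all genes by Benjamini-Hochberg at 0.05, and the procedure was tested on simulated data with known fold changes. Named genes are the 12 largest rises and 12 largest falls among called genes with separate groups and a mean log2 CPM no lower than 1, the 10 smallest p-values, the 8 highest counts among called genes, up to 5 genes of each of the 34 pathway lists, a set of exercise and clock genes, and the 6 smallest p-values of the difference between sessions; a few others are marked in the text as named after their values were seen, and some genes that the rule names are not reported here. A further 12 lists hold cell type markers. The members and lists were chosen with earlier results of these data known, and no test was run on a list. Alternatives were DESeq2 1.42.0, RLE factors, no filter, a minimum count of 50, the compared libraries alone, a replicate block, each library left out, sedentary ZT 16 muscle as the control, adipocyte and slow fibre scores as covariates, and the first lane alone. The 6 compared libraries held 45631207 to 56890848 estimated counts over all genes. Levels (CPM) are scaled to each library's total over the tested genes, adjusted by its TMM factor.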

Additional observations from a re-analysis of the deposited data

Results flagged for a closer look

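For Efnb3, an ephrin ligand, all run libraries lay below all sedentary libraries at ZT 0 and above all of them at ZT 12. It read 1.84, 1.25 and 1.38 CPM in sedentary and 0.926, 1.17 and 0.940 CPM in run muscle at ZT 0, against 0.372, 0.564 and 0.614 CPM in sedentary and 1.55, 1.11 and 1.32 CPM in run muscle at ZT 12. Sedentary ZT 16 muscle held 1.23 to 1.45 CPM, overlapping the run libraries of ZT 12, so the rise there depends on the sedentary group it is set against. The difference between the responses was 1.91 on the log2 scale, with an adjusted p of 0.258 in edgeR and 0.00506 in DESeq2.

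Ttll13, a tubulin-modifying enzyme gene of very low level, moved the other way. It read 0.0574, 0.0640 and 0.0617 CPM in sedentary and 0.269, 0.104 and 0.104 CPM in run muscle at ZT 0, against 0.310, 0.233 and 0.130 CPM in sedentary muscle at ZT 12 and 0.0739 and 0.0741 CPM in run replicates 1 and 2 there, with run replicate 3 also below all sedentary libraries. The difference was -2.87 (adjusted p = 0.258 in edgeR).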

How the results depend on the processing

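Among the 695 called genes the balance of rises over falls held in each alternative run, and the numbers moved. DESeq2 called 920 genes, 590 raised and 330 lowered. The fit of the 6 libraries alone called 385 (312 raised, 73 lowered), the adipocyte score as a covariate 457 (108 lowered), and the first lane alone 125 lowered genes. With sedentary ZT 16 muscle as the control the count was 1180, 538 of them lowered. Leaving out 1 library gave 380 to 659 calls, 303 to 420 raised and 77 to 257 lowered. For the difference between sessions DESeq2 called 18 genes, the 12 compared libraries alone 1, and the fits that left out 1 library 0 to 322. The causes of these shifts were not tested; fewer libraries were fitted where some were left out.

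With the replicate number as a block 655 genes passed, 454 raised and 201 lowered, and 0 for the difference; Dnajb1 (4.10, adjusted p = 0.0566) and Xirp1 (1.98, adjusted p = 0.0519) lost their calls under this block. Same-numbered run and sedentary libraries had correlated deviations of 0.32, -0.31 and 0.03 over 10948 genes, and run replicate 2 correlated best with sedentary replicate 3 (0.53), so the numbers were not taken as pairs.

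Of 116 named genes tested 100 were called. Of these, 21 lost the call without some 1 library, and 48 kept call and direction in all 16 alternatives. With sedentary ZT 16 muscle as the control the sign reversed for Ahsa1 (-0.013), Arntl (-1.58), Atf4 (-0.026), Cldn15 (0.40), Cry1 (-0.30), Dbp (0.87), Dusp8 (-0.053), Efnb3 (-0.035), Gstt2 (0.31), Hspa5 (-0.03), Hspa8 (-0.0296), Hspb1 (-0.022), Hyou1 (-0.14), Nfatc1 (-0.072), Nr1d1 (0.46), P4ha1 (-0.078), P4ha2 (-0.13), Pde4b (-0.0697), Ppargc1a (-0.11), Sox13 (-0.11) and Vegfa (-0.42). Under the other alternatives the sign reversed only for genes that were not called: Myh7 with the replicate block (0.21), without sedentary replicate 1 (1.13, against -1.87 without run replicate 3) and with the adipocyte (0.43) or slow fibre score (0.0296), and Pdk4 without run replicate 1 (-0.23, against 0.27 without run replicate 3), without sedentary replicate 1 (-0.03) and with the adipocyte score (-0.023).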
